A study of Homo sapiens with 12 samples.

Results

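The 40 genes described here are interferon-stimulated genes, the transcripts that cells raise when they sense an interferon. They were chosen by name and not by a measured value, though with earlier results of these data known. Each of the 40 matched 1 of the 57820 gene rows in both count tables through its Ensembl identifier. The libraries came from AsPC-1, a long-established line of human pancreatic ductal adenocarcinoma, in a series that asks which genes depend on BACH1, a heme-responsive repressor of transcription. There were 12 RNA sequencing libraries in 4 groups of 3. The siBACH1 group was transfected with Stealth siRNA duplexes against BACH1 in Lipofectamine RNAiMAX and harvested 24 h later. The siCont group is its control and is also labelled 24 h after transfection. The sgBACH1 group carried the lentiCRISPR v2 vector with a guide RNA against BACH1 and was selected in 10 µg/ml puromycin. The sgCont group is its control and is also labelled with 10 µg/ml puromycin. All groups are AsPC-1 cells with no interferon among the labelled treatments. The labels do not say whether the sgBACH1 cells were a pool or a clone, nor which control siRNA or control guide was used. Replicates are separate libraries of a group, and nothing in the labels says that they came from separate cultures, so the p-values reflect library-to-library spread that may be only technical.

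Interferons bind receptors at the cell surface whose kinases JAK1 and TYK2 phosphorylate STAT proteins such as STAT2. With IRF9 these form a complex that binds the interferon-stimulated response element, a promoter sequence repeated in many antiviral genes, while other STAT dimers bind the gamma-activated sequence. The induced proteins bind or destroy viral RNA, tag proteins with the ubiquitin-like ISG15, hold virus particles at membranes and amplify the response. Epithelial tumour cells often keep a low level of these transcripts without added interferon.

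BACH1 itself stood at 195, 289 and 195 CPM in siCont replicates 1 to 3 and at 24.7, 27.5 and 24.5 CPM in siBACH1, where CPM are the usual library-size-scaled counts with TMM factors over all 12 libraries. In sgCont it stood at 269.8, 294 and 279 CPM and in sgBACH1 at 219.6, 199 and 186 CPM, so neither pair of groups overlapped (two-sided exact permutation p = 0.1 in each, the smallest that 3 against 3 allow). Whole-gene counts check the siRNA labels, whereas a frame shift from a guide need not lower them. Depth was 13099706 to 21478886 counts a library. SiCont replicate 2 stood apart from its group (it differed from the other siCont libraries by a chi-square of 30.5 and 35.8 per degree of freedom, and they from each other by 8.89). A list of ATF4 stress genes summed to 2502 CPM in it, to 385 and 353 CPM in the other siCont libraries and to 218 to 291 CPM in the other groups. That library held the highest siCont value in 23 of the 36 interferon-stimulated genes tested (63.9%), against 39.5% of all genes tested, so values without it stand beside the siRNA results; the part of the stress response was not tested.

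Most defining markers of other cell types had few counts: PTPRC had 0 to 29 counts a library, CD3E 0 to 1, CD14 13 to 66, COL1A1 1 to 17, DCN 0 to 14, VWF 1 to 15, and CLEC4C, a marker of the plasmacytoid dendritic cells that make type I interferon, had 0 in all 12. The 7 listed blood markers summed to 82.5 to 126 CPM in siCont, 77.1 to 79.2 in siBACH1, 56.5 to 71.1 in sgCont and 664 to 812 in sgBACH1, nearly all of it LYZ, at 661.9 to 808 CPM in sgBACH1. CD14, a monocyte marker, stood at 2.02, 2.04 and 2.74 CPM in siCont and at 0.966, 0.647 and 0.822 CPM in siBACH1 and fell (-1.49 ± 0.34, edgeR adjusted p = 0.0122; -1.57 without siCont replicate 2), and in the knockout at 1.29 ± 0.49 (edgeR adjusted p = 0.0578). The 5 fibroblast markers summed to 292 to 302 CPM in siCont, 336 to 355 in siBACH1, 115 to 139 in sgCont and 45.5 to 51.7 in sgBACH1, nearly all of it LUM; the part of these cells or genes in the results was not tested. The epithelial genes KRT8 and EPCAM had at least 70783 and 5676 counts in every library. Of 12 interferon genes listed, none passed the filter on low counts. They summed to 0 to 10 counts a library, most of these from IFNE, with IFNG at 0 in all libraries and IFNB1 at 1 count in siCont replicate 3 alone.

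The interferon-stimulated response element is the sequence that ties most of these genes together, so the promoters of 6 members whose counts changed are shown: IFIT1, ISG15, DDX60 and BST2, which fell after the siRNA, ISG20, which fell in both experiments, and IFITM1, which rose in the knockout. Each is the RefSeq promoter (GRCh38.p14) from 250 bases before to 50 after the gene's start, 5′ to 3′ in the direction of the gene, with the core of the element, GAAANN followed at once by GAAA on either strand, in capitals.
IFIT1 (chr10:89392373-89392672, plus strand): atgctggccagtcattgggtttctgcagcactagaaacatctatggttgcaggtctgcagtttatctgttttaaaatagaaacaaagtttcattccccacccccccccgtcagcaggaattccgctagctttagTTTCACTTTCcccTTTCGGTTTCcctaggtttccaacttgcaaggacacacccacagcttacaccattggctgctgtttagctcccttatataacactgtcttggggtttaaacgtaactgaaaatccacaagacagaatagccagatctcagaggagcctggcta
ISG15 (chr1:1013247-1013546, plus strand): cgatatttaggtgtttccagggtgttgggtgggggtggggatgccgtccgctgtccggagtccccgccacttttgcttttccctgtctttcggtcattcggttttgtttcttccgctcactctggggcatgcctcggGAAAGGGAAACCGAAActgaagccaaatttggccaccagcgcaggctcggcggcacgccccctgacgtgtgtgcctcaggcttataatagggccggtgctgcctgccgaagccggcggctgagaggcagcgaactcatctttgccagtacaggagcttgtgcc
DDX60 (chr4:168318703-168319002, minus strand): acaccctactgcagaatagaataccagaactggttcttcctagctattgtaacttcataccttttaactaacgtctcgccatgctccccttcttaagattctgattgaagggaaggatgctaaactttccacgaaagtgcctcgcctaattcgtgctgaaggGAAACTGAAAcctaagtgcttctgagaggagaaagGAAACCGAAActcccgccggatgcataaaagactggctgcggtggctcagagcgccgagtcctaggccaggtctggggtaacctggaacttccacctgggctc
BST2 (chr19:17405581-17405880, minus strand): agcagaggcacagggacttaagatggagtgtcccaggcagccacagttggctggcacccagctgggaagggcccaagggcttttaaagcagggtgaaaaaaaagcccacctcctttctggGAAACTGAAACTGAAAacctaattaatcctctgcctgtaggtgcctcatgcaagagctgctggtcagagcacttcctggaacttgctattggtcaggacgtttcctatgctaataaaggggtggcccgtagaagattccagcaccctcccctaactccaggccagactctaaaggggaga
ISG20 (chr15:88638766-88639065, plus strand): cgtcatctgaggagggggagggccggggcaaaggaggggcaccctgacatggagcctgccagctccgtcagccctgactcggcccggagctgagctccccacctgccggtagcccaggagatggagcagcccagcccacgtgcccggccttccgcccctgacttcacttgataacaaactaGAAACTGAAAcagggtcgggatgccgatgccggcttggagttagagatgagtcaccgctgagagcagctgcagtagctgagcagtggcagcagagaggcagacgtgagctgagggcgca
IFITM1 (chr11:313790-314089, plus strand): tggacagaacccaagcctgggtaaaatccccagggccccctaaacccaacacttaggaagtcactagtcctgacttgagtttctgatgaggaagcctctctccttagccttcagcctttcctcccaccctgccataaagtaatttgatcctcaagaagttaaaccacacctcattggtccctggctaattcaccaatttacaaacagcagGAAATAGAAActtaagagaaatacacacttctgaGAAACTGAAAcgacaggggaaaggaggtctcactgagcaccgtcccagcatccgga
RefSeq promoters were matched for 33 of the 40 members. The core was present in 19 of the 33 (57.6%) and in 996 of 27305 promoters of all genes searched (3.65%). All 5 of the siRNA-lowered members with a promoter to search (IFIT1, ISG15, ISG20, BST2 and DDX60) held it, as did 1 of the 3 that rose (OAS3, not IFI35 or STAT2), and in the knockout 5 of 7 changed members held it. The gamma-activated sequence TTCNNNGAA was present in 10 of 33 member promoters (30.3%) and 7.88% of all. TGANNNNGC, the core of the element that BACH1 and NRF2 share, was present in 19 of 33 (57.6%) and 42.1% of all, and in 2 of the 5 siRNA-lowered members, ISG15 and ISG20. A match is a run of letters in this window and no evidence of binding. The core was searched as an exact string with 2 bases between GAAA and GAAA. Promoters such as those of IFI35, OAS1 and RSAD2 hold GAAA runs with 1 base between them, which were not counted. A promoter without a match can therefore still hold a looser form of the element.

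In the siRNA experiment the set split, with more members falling than rising. Of 36 members tested by edgeR, 3 rose (OAS3, IFI35 and STAT2), 8 fell (IFIT1, DDX60, ISG15, IFIT2, USP18, BST2, OASL and ISG20) and 25 did not pass, which is 30.6% called against a background of 23.9% of the 14591 genes tested (10.9% called higher and 13.0% lower). The members' median log2 fold change was -0.31, against 0.0050 over all genes, and -0.17 without siCont replicate 2. Without siCont replicate 2 the same 11 members passed and 7 more did, so that 8 rose and 10 fell, or 18 of 36, beside 33.9% of all genes in that fit. In the knockout experiment 33 members were tested, of which 4 rose (IFITM1, OAS1, IRF1 and OAS3), 4 fell (ISG20, IFIT3, IFITM3 and OASL) and 25 did not pass. That is 24.2% of the members, beside a background of 23.5% (11.3% higher and 12.3% lower), so the members' share lay close to that of all genes. The knockout median was -0.10 against 0.0055 over all genes.

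Passing in both experiments were 3 members, ISG20 and OASL, which fell, and OAS3, which rose. That is 9.09% of the 33 members tested in both, beside 8.34% of all genes tested in both (4.82% with the same sign). Of the 33 members tested in both, 21 had the same sign (63.6%), beside 51.1% of the 13845 genes tested in both. The 2 experiments share no control libraries.

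**Figure D1:**
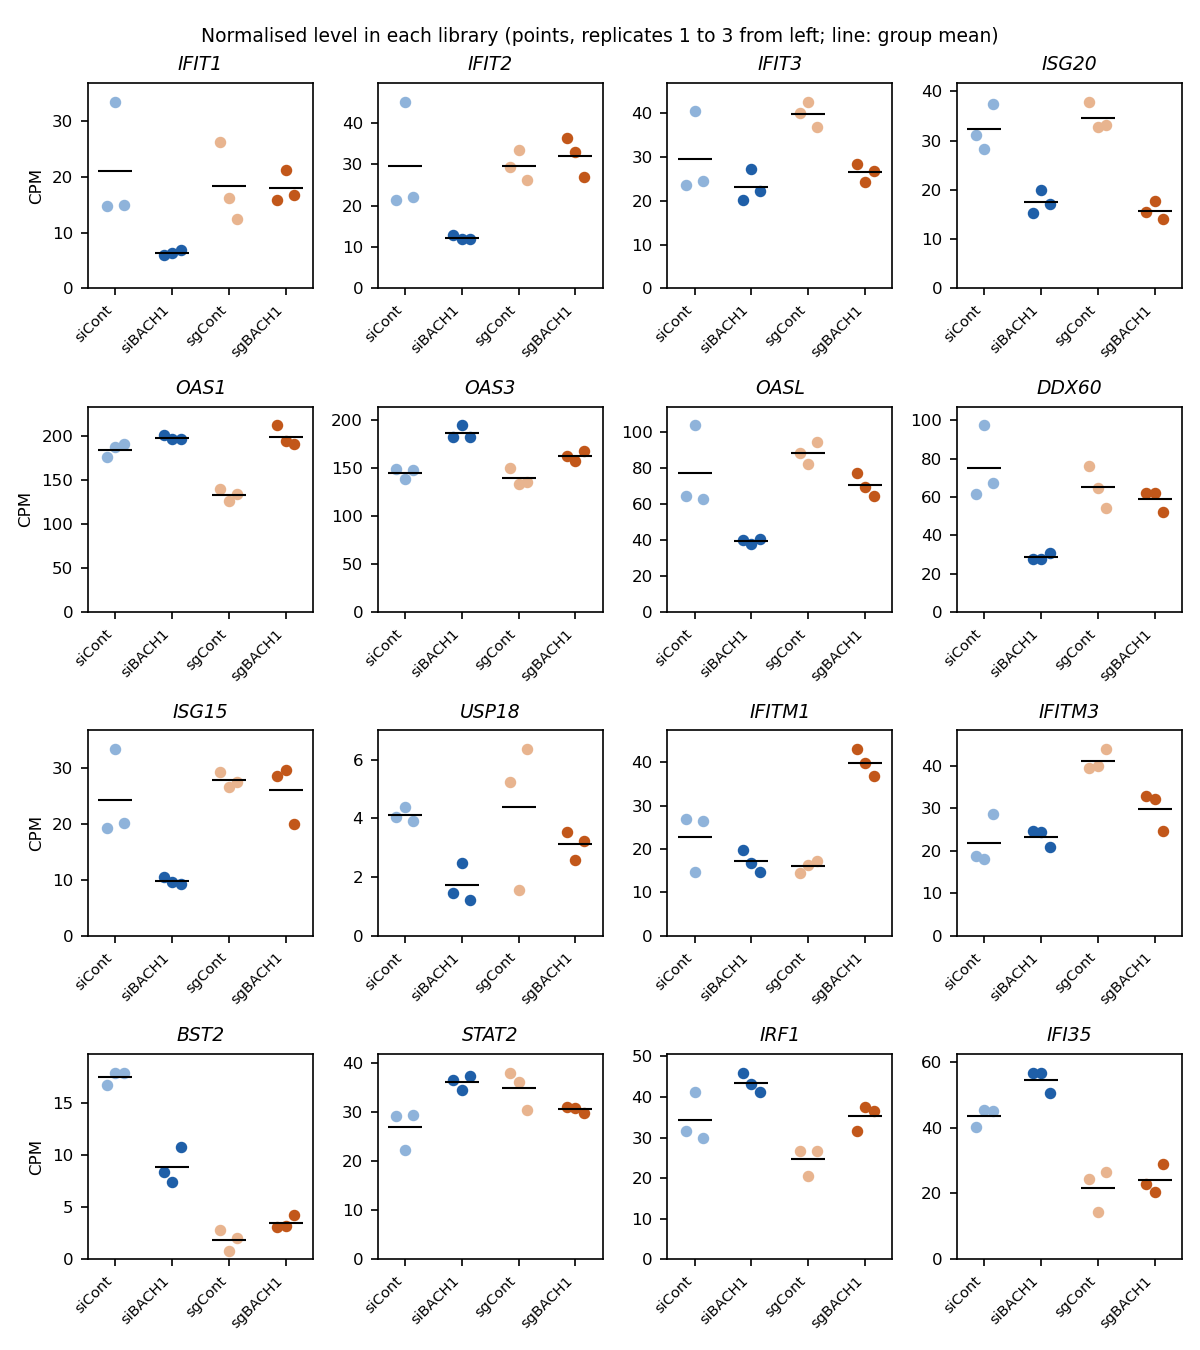
Normalised level (CPM, linear axis from 0) of the 16 interferon-stimulated genes called in either experiment, with a point for each of the 3 libraries of siCont, siBACH1, sgCont and sgBACH1 and a line at the group mean. IFIT1, ISG15 and DDX60 lie lower in all siBACH1 libraries than in any other library, ISG20 is lower in both BACH1-targeted groups, and IFITM1 is highest in sgBACH1; the high siCont point of IFIT1, IFIT2, ISG15, OASL and DDX60 is replicate 2.

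Of the 11 members that bind, sense or break down RNA, 5 fell and 1 rose after the siRNA, and 3 fell and 2 rose in the knockout. Those called were 54.5% and 45.5%, beside 23.9% and 23.5% of all genes tested. IFIT1, which binds viral RNA caps, stood at 14.9, 33.5 and 15.0 CPM in siCont and at 6.04, 6.38 and 6.94 CPM in siBACH1. Every siBACH1 library lay below every siCont library, and the log2 fold change was -1.71 ± 0.31 (SE; edgeR adjusted p = 0.00396), or -1.22 without siCont replicate 2. In the knockout IFIT1 stood at 26.3, 16.2 and 12.5 CPM in sgCont and at 15.8, 21.2 and 16.9 CPM in sgBACH1, which overlap (-0.03 ± 0.22). IFIT2, its partner in the same RNA-binding family, stood at 21.2, 45.1 and 22.2 CPM in siCont and at 13.0, 11.9 and 11.97 CPM in siBACH1. The IFIT2 groups did not overlap (-1.27 ± 0.27, edgeR adjusted p = 0.00894; -0.83 without siCont replicate 2), and the knockout value was 0.11 ± 0.15.

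IFIT3, which stabilises IFIT1, passed in the knockout only. Its siCont libraries, at 23.6, 40.5 and 24.4 CPM, overlapped those of siBACH1, at 20.2, 27.1 and 22.2 CPM (-0.35 ± 0.21; -0.06 without siCont replicate 2). In the knockout it stood at 39.9, 42.5 and 36.8 CPM in sgCont and at 28.3, 24.2 and 26.8 CPM in sgBACH1, with no overlap, and fell (-0.59 ± 0.13, edgeR adjusted p = 0.00183). The difference between its responses was 0.24 ± 0.25 (edgeR adjusted p = 0.546), or 0.53 ± 0.19 without siCont replicate 2 (edgeR adjusted p = 0.0427). IFIT5, the family member beside them on chromosome 10, stood at -0.28 ± 0.26 (0.08 without siCont replicate 2) and -0.43 ± 0.29 and passed in neither.

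DDX60, a helicase that assists the sensor RIG-I, stood at 61.6, 97.4 and 67.1 CPM in siCont and at 27.6, 27.6 and 31.0 CPM in siBACH1. The fall was -1.40 ± 0.17 (edgeR adjusted p = 0.000408), or -1.17 without siCont replicate 2. In the knockout, where the groups overlapped between 54.5 and 62.3 CPM, the value was -0.15 ± 0.12. IFIH1, which encodes the RNA sensor MDA5, stood at 3.07, 9.01 and 2.86 CPM in siCont and at 6.52, 6.08 and 8.404 CPM in siBACH1. Replicate 2 lies above all siBACH1 libraries and the other siCont libraries below them: the log2 fold change was 0.51 ± 0.41 over all libraries (edgeR adjusted p = 0.412) and 1.24 ± 0.25 without that library (edgeR adjusted p = 0.000446). In the knockout IFIH1 stood at -0.58 ± 0.36 and did not pass.

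ISG20, an exonuclease that degrades RNA, was lower in both experiments. It stood at 31.1, 28.2 and 37.5 CPM in siCont against 15.3, 20.0 and 17.0 CPM in siBACH1 (-0.89 ± 0.15, edgeR adjusted p = 0.00235; -0.98 without siCont replicate 2). In the knockout it stood at 37.9, 32.7 and 33.2 CPM in sgCont against 15.5, 17.6 and 14.0 CPM in sgBACH1 (-1.14 ± 0.15, edgeR adjusted p = 3.62e-06). The groups were apart in each, siCont replicate 2 was the lowest and not the highest of its group, and ISG20 passed in all 13 alternative analyses of each experiment. The difference between the responses was 0.25 ± 0.21 (edgeR adjusted p = 0.424).

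The oligoadenylate synthetases, which make the second messenger that activates RNase L, did not move together. OAS1 was the most abundant member per kilobase of exon and stood at 176, 187 and 190.2 CPM in siCont against 201, 196 and 197 CPM in siBACH1 (0.10 ± 0.07, edgeR adjusted p = 0.364, with no overlap; 0.11 without siCont replicate 2). In the knockout OAS1 rose from 139, 126 and 134 CPM in sgCont to 212, 194 and 191 CPM in sgBACH1 (0.58 ± 0.08, edgeR adjusted p = 4.76e-06). OAS3 rose from 149, 139 and 149 CPM to 182, 195 and 183 CPM after the siRNA (0.36 ± 0.07, edgeR adjusted p = 0.00741; 0.32 without siCont replicate 2). Its knockout rise, from 149.9, 133 and 136 CPM to 162, 158 and 168 CPM, was small (0.22 ± 0.08, edgeR adjusted p = 0.0467) and passed without 1 library only when that was sgCont replicate 1. The siRNA rise of OAS3 was lost without siBACH1 replicate 2 (edgeR adjusted p = 0.0556). OAS2 stood at -0.48 ± 0.38 and -0.24 ± 0.35 and passed in neither, and its siRNA value was 0.07 without siCont replicate 2.

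OASL, a relative that lacks the synthetase activity and binds RIG-I, fell in both. It stood at 64.4, 104 and 63.2 CPM in siCont and at 39.9, 37.9 and 40.8 CPM in siBACH1 (-0.97 ± 0.18, edgeR adjusted p = 0.00472; -0.70 without siCont replicate 2). In the knockout it stood at 88.4, 82.3 and 94.8 CPM in sgCont and at 77.6, 69.4 and 64.7 CPM in sgBACH1, again apart (-0.33 ± 0.10, edgeR adjusted p = 0.0174). The knockout call was lost without sgBACH1 replicate 2, sgBACH1 replicate 3 or sgCont replicate 3 (edgeR adjusted p = 0.0818, 0.121 and 0.0839). Genes around OASL on chromosome 12 also stood low in the knockout: the 100 nearest tested genes had a median of -0.30, with 39 that fell and 4 that rose, so OASL differed from its neighbours' median by -0.02.

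Of the 6 members that attach or remove ISG15, 2 fell after the siRNA (ISG15 and USP18), or 33.3%, beside 23.9% of all genes tested. None of the 6 passed in the knockout, beside 23.5% of all genes, and the lowest adjusted p of edgeR among them was 0.392. ISG15 itself, the ubiquitin-like modifier, stood at 19.3, 33.5 and 20.2 CPM in siCont and at 10.6, 9.66 and 9.27 CPM in siBACH1, with no overlap (-1.31 ± 0.22, edgeR adjusted p = 0.00241; -1.02 without siCont replicate 2). Its knockout libraries, at 29.4, 26.6 and 27.6 CPM in sgCont and 28.5, 29.7 and 20.0 CPM in sgBACH1, overlapped (-0.10 ± 0.16). USP18, which removes ISG15 and restrains the interferon receptor, stood at 4.05, 4.39 and 3.91 CPM in siCont and at 1.45, 2.49 and 1.23 CPM in siBACH1 (-1.25 ± 0.31, edgeR adjusted p = 0.0182; -1.21 without siCont replicate 2). With siBACH1 replicate 1 or 3 left out it missed the threshold (adjusted p = 0.0747 and 0.0706). USP18 stood at 5.23, 1.55 and 6.37 CPM in sgCont, a wide spread around the 2.57 to 3.53 CPM of sgBACH1.

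The conjugating enzymes of this pathway did not pass in either experiment. The ligases HERC5 and HERC6 stood at -0.95 ± 0.43 and -0.57 ± 0.28 after the siRNA, with siCont replicate 2 the highest library for each (-0.33 and -0.21 without it), and at -0.28 ± 0.30 and -0.51 ± 0.39 in the knockout. The E2 enzyme UBE2L6 was scarce, at 0.392 to 1.75 CPM over the 12 libraries. TRIM25, a ligase that activates RIG-I, stood at 134, 262 and 137 CPM in siCont and at 153, 163 and 161 CPM in siBACH1. It was not called over all libraries (-0.17 ± 0.23), and without siCont replicate 2 its sign turned and it passed (0.22 ± 0.06, edgeR adjusted p = 0.00578). In the knockout TRIM25 lay between 152 and 157 CPM in all 6 libraries.

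**Figure D2:**
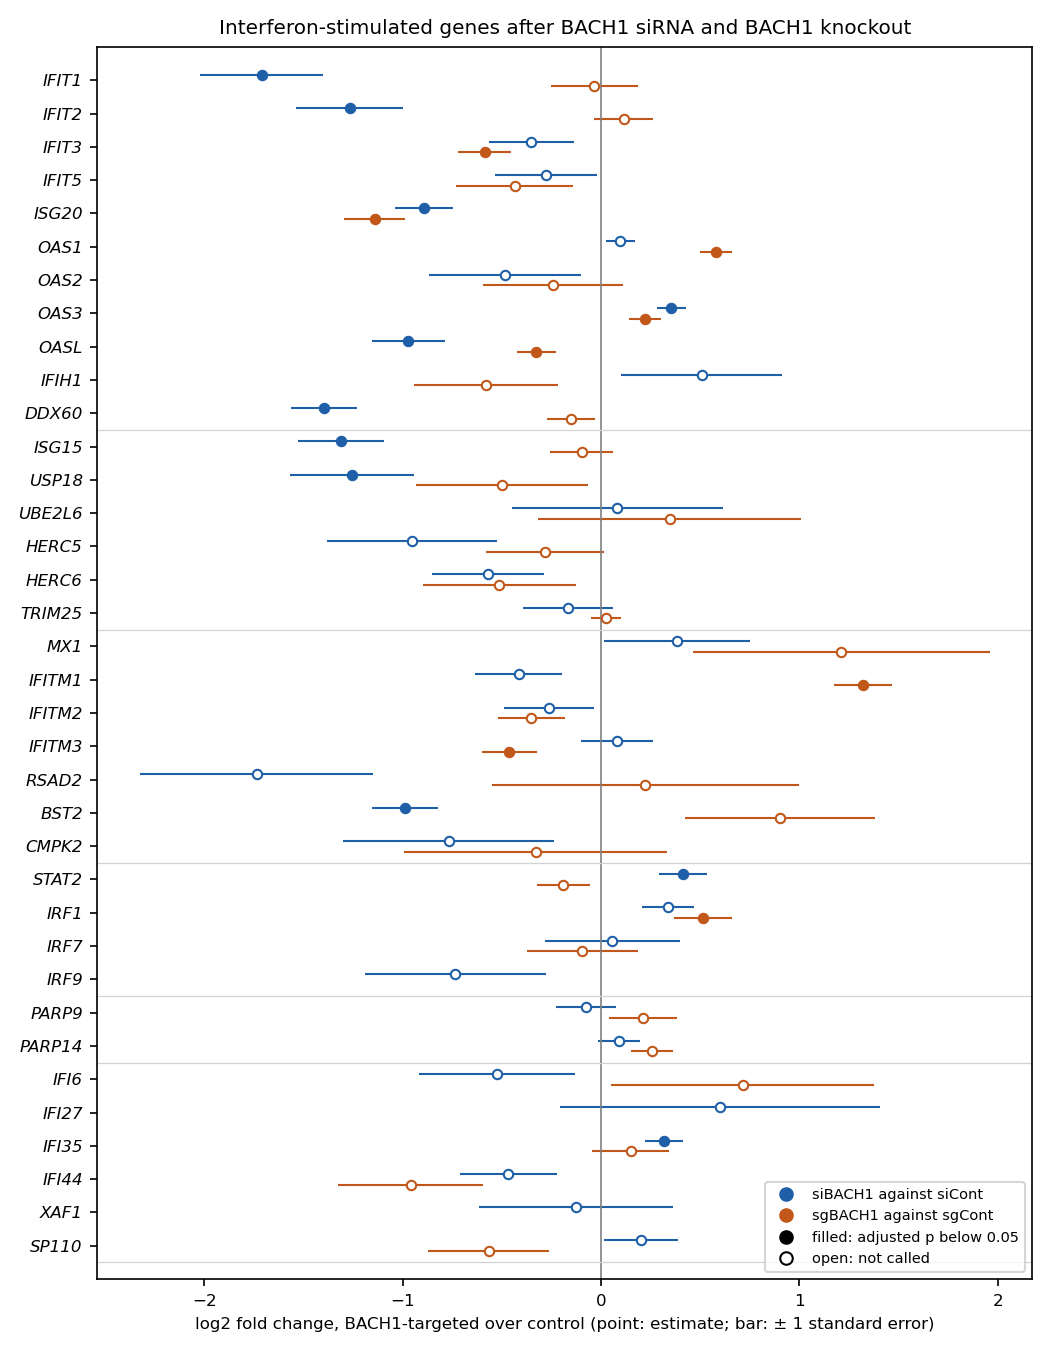
Log2 fold change (point; bar, ± 1 standard error) of the 36 interferon-stimulated genes tested in either experiment, for siBACH1 against siCont in blue and sgBACH1 against sgCont in orange, grouped by role from RNA-binding genes at the top; filled points passed at an adjusted p below 0.05. IFIT1 at -1.71 and IFIT2 at -1.27 lie far left in the siRNA experiment and near 0 in the knockout, IFITM1 and BST2 lie on opposite sides of 0, and ISG20 lies left in both.

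Of the 7 tested antiviral GTPases, membrane and nucleotide effectors, 1 fell after the siRNA (BST2), and 1 rose (IFITM1) and 1 fell (IFITM3) in the knockout. Those called were 14.3% and 28.6%, beside 23.9% and 23.5% of all genes tested. IFITM1, which blocks virus entry at the cell surface, stood at 14.5, 16.2 and 17.3 CPM in sgCont and at 43.1, 39.8 and 36.8 CPM in sgBACH1, the largest rise of the set (1.32 ± 0.15, edgeR adjusted p = 1.84e-07). After the siRNA it stood at 27.0, 14.7 and 26.4 CPM in siCont and at 19.8, 16.8 and 14.8 CPM in siBACH1, where siCont replicate 2 was the lowest library (-0.42 ± 0.22, edgeR adjusted p = 0.211). Without that library it passed as lower (-0.65 ± 0.13, edgeR adjusted p = 0.000329). IFITM3, its endosomal relative, stood at 39.5, 39.9 and 43.9 CPM in sgCont and at 32.8, 32.2 and 24.6 CPM in sgBACH1 and fell (-0.46 ± 0.14, edgeR adjusted p = 0.015), a call lost without sgBACH1 replicate 3 or sgCont replicate 3 (edgeR adjusted p = 0.125 and 0.0676). IFITM2 stood at -0.26 ± 0.23 and -0.35 ± 0.17 and passed in neither, but fell without siCont replicate 2 (-0.51 ± 0.13, edgeR adjusted p = 0.00512). IFITM1, IFITM2 and IFITM3 are related in sequence and IFITM1 shares exon bases with IFITM2. Some of their reads may therefore have been dropped in counting or given to the wrong gene.

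BST2, or tetherin, which holds budding virus at the membrane, stood at 16.7, 17.9 and 17.9 CPM in siCont and at 8.33, 7.37 and 10.8 CPM in siBACH1. It fell by 0.99 ± 0.17 on the log2 scale (edgeR adjusted p = 0.0027; -0.97 without siCont replicate 2) and kept its call in all 13 alternatives. In the knockout experiment BST2 was far lower in both groups, at 2.81, 0.776 and 2.02 CPM in sgCont and 3.10, 3.19 and 4.26 CPM in sgBACH1 (0.90 ± 0.48, edgeR adjusted p = 0.194). RSAD2, or viperin, had few counts: 29, 55 and 19 in siCont and 8, 25 and 10 in siBACH1 (-1.74 ± 0.59, edgeR adjusted p = 0.0603; -1.08 ± 0.54 without siCont replicate 2). It passed the low-count filter unevenly, with 1 siBACH1 and 3 siCont libraries above it. CMPK2, which overlaps RSAD2 on the opposite strand, stood at -0.77 ± 0.53 after the siRNA (-0.62 without siCont replicate 2). The GTPase MX1 stood at 0.38 ± 0.37 (0.56 without it) and, in the knockout, at 1.21 ± 0.75 (edgeR adjusted p = 0.276).

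Of the 4 signalling members, STAT2 rose after the siRNA and IRF1 in the knockout. That is 25.0% of 4 tested and 33.3% of 3 tested, beside 23.9% and 23.5% of all genes. STAT2, a subunit of the transcription complex, stood at 29.3, 22.3 and 29.5 CPM in siCont and at 36.7, 34.5 and 37.5 CPM in siBACH1 and rose (0.41 ± 0.12, edgeR adjusted p = 0.0371; 0.29 without siCont replicate 2). The call was lost without siBACH1 replicate 1, 2 or 3 or siCont replicate 1 (edgeR adjusted p = 0.12, 0.0888, 0.133 and 0.0585). In the knockout it stood at -0.19 ± 0.13, with its chromosome 12 neighbours at a median of -0.35. IRF1, an activator of many of the other members, stood at 26.7, 20.6 and 26.7 CPM in sgCont and at 31.6, 37.6 and 36.5 CPM in sgBACH1 and rose (0.52 ± 0.15, edgeR adjusted p = 0.0106). That rise was lost without sgBACH1 replicate 2 or 3 (edgeR adjusted p = 0.066 and 0.0559). After the siRNA IRF1 stood at 0.34 ± 0.13 (edgeR adjusted p = 0.0955) and passed without siCont replicate 2 (0.49 ± 0.10, edgeR adjusted p = 0.000301).

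IRF7, the regulator that amplifies interferon genes, stood at 8.87, 22.5 and 8.28 CPM in siCont and at 13.8, 14.1 and 13.2 CPM in siBACH1, and was called without siCont replicate 2 (0.67 ± 0.16, edgeR adjusted p = 0.00185; 0.06 ± 0.34 over all). Its knockout value was -0.09 ± 0.28. IRF9, the DNA-binding part of the complex, was near the floor, with 1 to 20 counts a library. It was tested in the siRNA experiment only (-0.73 ± 0.45; -0.90 without siCont replicate 2).

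IFI35, which interacts with the interferon-induced protein NMI, stood at 40.3, 45.3 and 45.1 CPM in siCont and at 56.7, 56.4 and 50.5 CPM in siBACH1 and rose (0.32 ± 0.10, edgeR adjusted p = 0.0393). Of 6 fits that each left out 1 library, only that without siCont replicate 2 kept the call (0.34 ± 0.09), and the others gave adjusted p from 0.0626 to 0.147. PARP14, an ADP-ribosyltransferase induced with the set, stood at 0.09 ± 0.10 after the siRNA, passed without siCont replicate 2 (0.20 ± 0.07, edgeR adjusted p = 0.0191), and stood at 0.26 ± 0.10 in the knockout (edgeR adjusted p = 0.0784). PARP9 stood at -0.07 ± 0.15 (-0.14 without siCont replicate 2) and 0.21 ± 0.17. SP110, a nuclear body protein, stood at 0.20 ± 0.19 (0.23 without it) and -0.57 ± 0.30, and IFI44 at -0.47 ± 0.24 (-0.42 without it) and -0.96 ± 0.36 (edgeR adjusted p = 0.0598 in the knockout). IFI6, at 0.282 to 2.04 CPM, passed in neither.

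Several classic members were barely present. The chemokine CXCL10 had 2 counts in all 12 libraries together, both in siBACH1 replicate 1, and CXCL11 had 4 counts in siCont replicate 2 and 1 and 12 counts in sgBACH1 replicates 1 and 3. MX2 had 0 to 6 counts a library and IFI44L 0 to 3. These 4 failed the filter on low counts in both experiments, and IFI27, IRF9 and XAF1 also failed it in the knockout, with at most 16 counts a library there. The filter asks for 3 libraries above its limit. RSAD2, IRF9, CMPK2 and UBE2L6 in the siRNA experiment, and MX1, IFI6 and UBE2L6 in the knockout, had all 3 libraries of 1 group above it and fewer of the other, and none of these was called.

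The levels spanned a wide range when divided by exon length. OAS1 led at 36.1 CPM per kilobase over the 12 libraries, followed by ISG15 at 23.4, IFITM1 at 22.2 and IFITM3 at 21.5. In sgBACH1 OAS1 and IFITM1 stood close together at 40.2 and 36.9 CPM per kilobase, whereas in siBACH1 ISG15 stood at 10.5 and OAS1 at 40.05. The lowest tested members were XAF1 at 0.085 and IFI27 at 0.128 CPM per kilobase. Exon length was taken from the merged exons of GENCODE 29, not from the transcripts these cells use.

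The difference between the 2 responses was tested in 1 fit of all 12 libraries. Of 36 members 9 differed (25.0%), 1 with a higher and 8 with a lower siRNA response, beside 23.6% of the 15644 genes tested (10.6% higher and 13.0% lower). IFIT1, IFIT2, ISG15 and DDX60 had falls after the siRNA and knockout values between -0.15 and 0.11, with differences of -1.67 ± 0.42, -1.37 ± 0.32, -1.21 ± 0.28 and -1.24 ± 0.22. BST2 differed by -1.87 ± 0.42 and IFITM1 by -1.73 ± 0.27, since each had opposite signs in the experiments. OAS1 differed by -0.48 ± 0.10, OASL by -0.64 ± 0.21 and STAT2 by 0.61 ± 0.18. OASL lost this call in 7 of the 12 fits without 1 library and STAT2 without sgCont replicate 1 (edgeR adjusted p = 0.0507). Without siCont replicate 2 all 9 remained and IFIH1 (1.82 ± 0.47) and IFIT3 (0.53 ± 0.19) were added, or 30.6% beside 24.5% of all genes in that fit. The experiments differ in the means of targeting BACH1 and in the fall of its mRNA. They may also differ in the extent and time of BACH1 protein loss, which was not measured here. The parts of these in the differences cannot be told apart.

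Since transfected RNA and lentivirus can themselves induce such genes, the control groups were also set against each other. Of 36 members 10 differed between siCont and sgCont (27.8%), beside 37.8% of all genes (19.8% higher in siCont and 18.1% lower). BST2 differed most, at 16.7 to 17.9 CPM in siCont against 0.776 to 2.81 CPM in sgCont (log2 difference 3.19 ± 0.31, edgeR adjusted p = 6.22e-07). RSAD2 was higher in siCont by 2.23 ± 0.68 (edgeR adjusted p = 0.0154), but by 1.58 without siCont replicate 2, where it did not pass (adjusted p = 0.117), nor did it without sgCont replicate 1 (adjusted p = 0.0602). IFI35 (1.00 ± 0.18), PARP14 (0.62 ± 0.11), OAS1 (0.47 ± 0.07), IRF1 (0.47 ± 0.14) and IFITM1 (0.51 ± 0.19) were also higher in siCont. IFITM3 (-0.91 ± 0.17), IFITM2 (-0.74 ± 0.21) and STAT2 (-0.37 ± 0.13) were lower. A fit of the 6 control libraries alone called 7 of 34 members (20.6%), beside 31.0% of all genes in that fit. It lost IRF1, IFITM1 and STAT2 (edgeR adjusted p = 0.0555, 0.118 and 0.0987).

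Those members are mixed in level and role, and IFIT1, IFIT2 and DDX60, at 0.19 ± 0.29, -0.01 ± 0.22 and 0.21 ± 0.15, did not pass over all libraries. Without siCont replicate 2 the count was 12 (33.3%), with 5 higher and 7 lower in siCont. All genes called in that fit were 34.8% of 16309, with 2933 higher and 2745 lower, so the members' share lay close to that of all genes. IFIT2 (-0.45 ± 0.15), IFIT3 (-0.72 ± 0.14), IFIH1 (-1.02 ± 0.36), OASL (-0.47 ± 0.10) and ISG15 (-0.49 ± 0.17) then passed as lower in siCont, and IRF1, RSAD2 and STAT2 no longer passed. IRF1 also lost its call without sgCont replicate 2, STAT2 without sgCont replicate 1 or 2, IFITM2 without sgCont replicate 3, and IFITM1 in 10 of 12 fits without 1 library. Summed over the 40 genes, the level was 1064, 1403 and 1106 CPM in siCont and 1102, 997 and 1054 CPM in sgCont. Experiment, transfection and lentiviral selection cannot be told apart in this comparison, nor can any difference in library preparation, which the labels do not name.

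**Figure D3:**
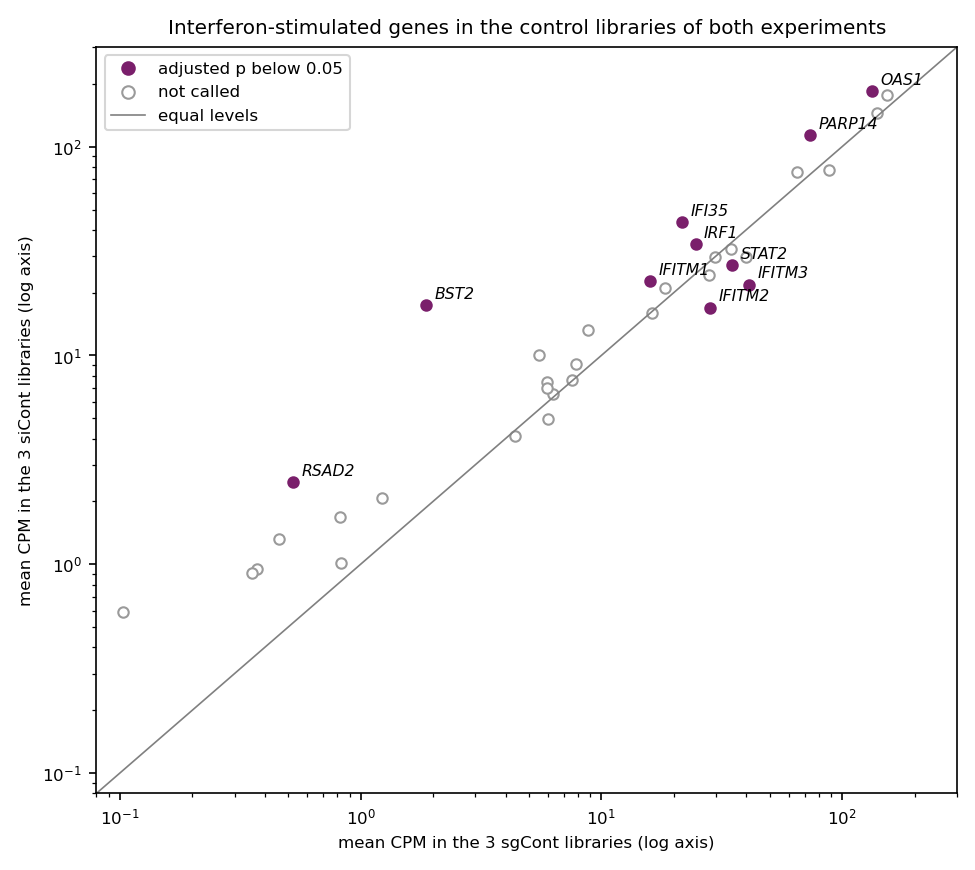
Mean CPM of the 36 interferon-stimulated genes tested, in the 3 sgCont libraries (horizontal) and the 3 siCont libraries (vertical), both on log axes, with a line of equal levels; filled points passed at an adjusted p below 0.05. Among the filled points BST2 and RSAD2 lie farthest above the line, at log2 differences of 3.19 and 2.23, and IFITM2, IFITM3 and STAT2 below it.

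Position and sequence gave further values. Around the members called in the knockout, the nearest tested genes (up to 50 on each side, members left out) had medians of 0.06 for ISG20, 0.03 for IFIT3, 0.0031 for IFITM1 and IFITM3, 0.05 for IRF1, -0.15 for OAS1 and OAS3 and -0.30 for OASL. The member nearest its neighbours' median among these was OASL, at -0.02 from it. OAS3 came next, 0.37 above its own. In the siRNA experiment neighbour medians lay between -0.15 and 0.22 for all members. The 7-base words AACATTA and ACATTAA, picked because they were the most enriched in 3′ UTRs of genes lower after the siRNA in these same libraries, occur in 923 of 1753 such genes with a UTR (52.7%), in 12.5% of those that rose and in 20.2% of those not called. Among the 36 members tested, 6 carry one (16.7%): IFIT1, IFIT2, IFIT5, IFIH1, USP18 and PARP9. That is 3 of the 8 members that fell, while DDX60, ISG15, BST2, OASL and ISG20 carry neither. The sources used here do not give the siRNA's sequence. The part of these words in the falls was not tested. By the reference annotation 12 members have exon bases that an opposite-strand gene also covers, including IFIT2, ISG15, OAS1, IRF1, IFITM3, RSAD2 and TRIM25. The sources used here do not say whether the counting used strand.

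The rest of the interferon pathway was read from 4 lists of other genes, of receptors, feedback inhibitors, sensors with their adaptors, and other induced genes, and from STAT3 and IRF5. Of 6 receptor chains 1 rose, 2 fell and 3 did not pass after the siRNA, beside 23.9% of all genes called. Without siCont replicate 2 again 1 rose and 2 fell, beside 33.9% of all genes called in that fit. In the knockout 1 rose and 1 fell (33.3%, beside 23.5% of all genes). IFNAR1, a chain of the type I receptor, fell after the siRNA (-0.52 ± 0.12, edgeR adjusted p = 0.012; -0.42 without siCont replicate 2), and lost that call when siBACH1 replicate 1 or 2 was left out (adjusted p = 0.0659 and 0.0548). IFNGR1, of the type II receptor, stood at 119, 129 and 123 CPM in sgCont and at 71.1, 76.1 and 74.5 CPM in sgBACH1 and fell (-0.74 ± 0.09, edgeR adjusted p = 4.52e-07).

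STAT3, which many cytokines activate, went opposite ways (0.57 ± 0.08, or 0.55 without siCont replicate 2, and -0.35 ± 0.10; difference 0.93 ± 0.13, edgeR adjusted p = 6.17e-05), the knockout call being lost without sgBACH1 replicate 2 or 3 or sgCont replicate 3 (edgeR adjusted p = 0.0843, 0.068 and 0.0762). IRF5, an interferon regulatory factor, rose in the knockout (1.91 ± 0.42, edgeR adjusted p = 0.00125) and stood at 0.72 ± 0.28 after the siRNA (edgeR adjusted p = 0.0965; 0.60 without siCont replicate 2).

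Among 5 tested feedback inhibitors PTPN11, a phosphatase, fell after the siRNA (-1.31 ± 0.10, edgeR adjusted p = 3.47e-05, or -1.22 without siCont replicate 2). SOCS3 rose in the knockout (1.54 ± 0.38, edgeR adjusted p = 0.00378). That is 20.0% of the 5 in each experiment, beside 23.9% and 23.5% of all genes tested. Of 10 tested sensors and adaptors 1 rose and 1 fell after the siRNA (20.0%, beside 23.9% of all genes). Without siCont replicate 2, 4 rose and 1 fell, beside 33.9% of all genes called in that fit. In the knockout 3 fell (30.0%, beside 23.5% of all genes). TMEM173, which encodes the adaptor STING, fell in both experiments. It stood at 28.6, 31.0 and 30.1 CPM in siCont against 23.1, 16.2 and 17.5 CPM in siBACH1 (-0.67 ± 0.14, edgeR adjusted p = 0.00952, or -0.65 without siCont replicate 2). It stood at 47.2, 43.1 and 46.6 CPM in sgCont against 16.5, 14.5 and 13.4 CPM in sgBACH1 (-1.63 ± 0.14, edgeR adjusted p = 3.99e-09). The knockout fall was the larger (difference 0.96 ± 0.19, edgeR adjusted p = 0.00151), and the siRNA call was lost without siBACH1 replicate 3 (edgeR adjusted p = 0.0506).

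Of 29 tested members of a list of other interferon-induced genes, 9 rose and 1 fell after the siRNA (median 0.11). That is 34.5%, beside 23.9% of all genes tested. Without siCont replicate 2, 11 rose and 5 fell (median 0.20), beside 33.9% of all genes called in that fit. In the knockout 7 rose and 5 fell (median -0.12), or 41.4%, beside 23.5% of all genes tested. HELZ2, a helicase, stood at 94.7, 91.3 and 81.8 CPM in siCont and at 158, 157 and 155 CPM in siBACH1 (0.81 ± 0.08, edgeR adjusted p = 0.000157; 0.82 without siCont replicate 2), and rose in the knockout too (0.95 ± 0.10, edgeR adjusted p = 1.66e-07). RNF213, an E3 ligase, rose in both (0.74 ± 0.08, or 0.66 without siCont replicate 2, and 0.47 ± 0.08). GBP3, a guanylate-binding GTPase, rose after the siRNA (1.11 ± 0.32, edgeR adjusted p = 0.0329); it stood at 1.70 without siCont replicate 2 and missed the threshold in each of the other 5 fits without 1 library. SAMD9L, an antiviral factor, fell after the siRNA (-0.81 ± 0.19; -0.65 without siCont replicate 2) and missed the threshold without any 1 of the siBACH1 replicates. PARP10 rose after the siRNA and fell in the knockout (0.66 ± 0.12, or 0.54 without siCont replicate 2, and -0.81 ± 0.15; difference 1.47 ± 0.19, edgeR adjusted p = 2.15e-05). IFI16, a DNA sensor, stood at 38.0, 28.8 and 28.9 CPM in sgCont and at 10.2, 6.94 and 5.38 CPM in sgBACH1 (-2.09 ± 0.21, edgeR adjusted p = 3.97e-08), and PML, which builds nuclear bodies, fell beside it (-1.15 ± 0.12, edgeR adjusted p = 6.28e-08). PARP12 rose in the knockout (1.12 ± 0.18, edgeR adjusted p = 3.7e-05). After the siRNA IFI16 and PML did not pass (-0.88 ± 0.35 and 0.12 ± 0.09), and without siCont replicate 2, the highest siCont library of IFI16 at 48.2 CPM, they stood at -0.26 and 0.14.

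**Figure D4:**
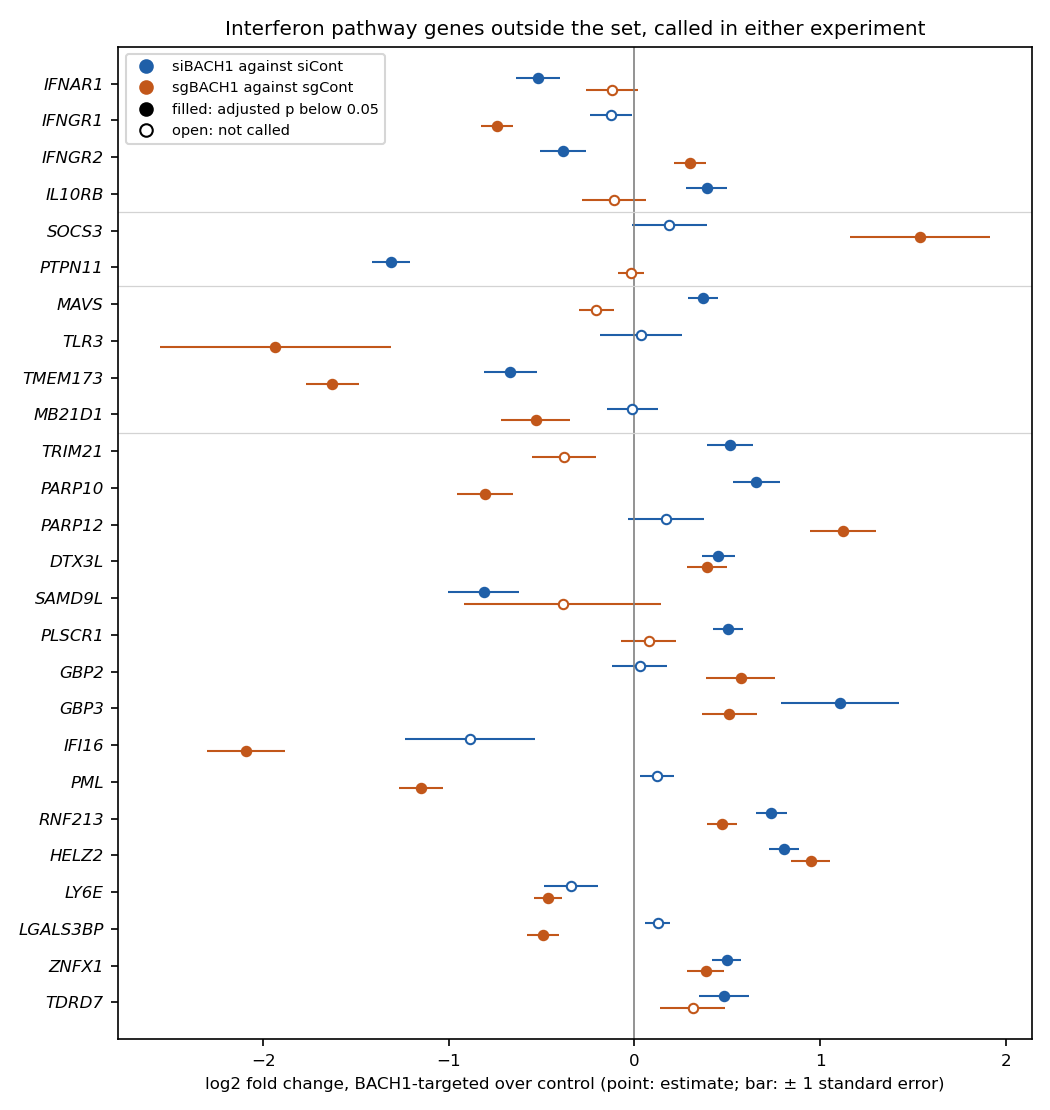
Log2 fold change (point; bar, ± 1 standard error) of the 26 genes of these 4 lists that were called in either experiment, for siBACH1 against siCont in blue and sgBACH1 against sgCont in orange, in the order receptors, feedback inhibitors, sensors and adaptors, and other induced genes; filled points passed at an adjusted p below 0.05. TMEM173 lies left of 0 in both, HELZ2 and RNF213 right of 0 in both, and PARP10 on opposite sides.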

How the data were processed

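RNA of 12 libraries was sequenced on an Ion Proton after rRNA depletion, per the labels' protocols. The deposited values are raw counts per gene, which the authors made with HTSeq 0.9.1 and SAMtools on hg19, per the submitters' processing notes. The sources used here give no aligner or strand setting. Testing used edgeR 4.0.16 under R 4.3.3 (TMM, filterByExpr with a minimum count of 10, two-sided quasi-likelihood test, Benjamini-Hochberg over all genes tested, threshold 0.05). Each experiment was fitted alone, and the difference of responses and the control comparison came from 1 fit of 12 libraries. In simulated counts with the same dispersion for every gene and no outlying library, the fits recovered most 4-fold changes. Those settings differ from these data, and the recovery of smaller changes is not given here. Alternatives were DESeq2 1.42.0, limma-voom (limma 3.58.1), other scalings, no filter, a replicate block, all 12 or only the control libraries, and leaving out each library. Every member may be named, and other pathway genes if called, at most the 4 largest changes per list and comparison. Members and lists were chosen with earlier results of these data known. IKBKE and PECAM1 were not matched. Coordinates are GRCh38 (RefSeq, GENCODE 29). Some genes of the lists are not reported here.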

Additional observations from a re-analysis of the deposited data

Results flagged for a closer look

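The response to the siRNA and the response to the knockout differed, by an interaction test in edgeR over all 12 libraries, in 9 interferon-stimulated genes. That is 25.0% of the 36 tested, beside 23.6% of all 15644 genes tested, so the members' share lay close to that of all genes. The siRNA response minus the knockout response was -1.67 on the log2 scale for IFIT1, -1.37 for IFIT2, -1.21 for ISG15 and -1.24 for DDX60, genes lower in siBACH1 and overlapping between groups in the knockout. It was -1.73 for IFITM1 and -1.87 for BST2, whose estimates had opposite signs. It was -0.48 for OAS1, -0.64 for OASL and 0.61 for STAT2. OASL kept this call in 5 of the 12 fits without 1 library, and STAT2 in 11. No group holds more than 3 libraries, so no library was tested as an outlier.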

How the results depend on the processing

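The siRNA experiment called 11 interferon-stimulated genes. Leaving out 1 library gave 8 to 18, the highest without siCont replicate 2. The share of all genes called moved too, from 13.2% without siBACH1 replicate 1 to 33.9% without siCont replicate 2. The knockout called 8, and leaving out 1 library gave 4 to 8, with 5 without sgBACH1 replicate 2 and 4 without sgBACH1 replicate 3. These last fits called 14.7% and 11.8% of members, beside 16.6% and 17.7% of all genes. Over all knockout libraries the shares were 24.2% and 23.5%. The difference of responses (9) gave 7 to 11 and the control comparison (10) gave 7 to 12. For the difference, members called ranged from 19.4% to 30.6%, beside 18.1% to 24.5% of all genes. Between controls the ranges were 19.4% to 33.3% and 32.1% to 35.8%. RLE and upper quartile scaling, no filter on low counts, DESeq2, limma-voom and the fit of all 12 libraries stayed within 1.5 times each of the main counts of 11, 8, 9 and 10. No named gene changed sign where it had been called: of 1171 such values over the alternatives, 1030 kept their call and 141 lost it. Libraries with the same replicate number had small correlations of deviations: 0.0202 to 0.0571 in the siRNA experiment, -0.0153 to 0.0486 in the knockout and 0.0115 to 0.0397 between controls. Those with different numbers gave -0.0474 to 0.00946, -0.0626 to 0.0284 and -0.0387 to 0.00559. In the siRNA experiment and between controls every same-number value was the higher, so the numbers do not exclude pairs. The main fits used no pairing. With the replicate block 11 members were called after the siRNA (IFI35 lost, RSAD2 gained), 9 in the knockout (PARP14 gained), 9 in the difference and 10 between controls (IFITM1 lost, IFIT3 gained). Member shares were 30.6%, 27.3%, 25.0% and 27.8%, beside 21.9%, 24.4%, 22.5% and 37.0% of all genes in these fits. Members below about 1 CPM, such as CXCL10, MX2 and IFI44L, could not be judged at this depth.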
